A study of Caenorhabditis elegans with 2 samples.

Results

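The ceh genes are the homeobox genes of Caenorhabditis elegans that carry the symbol ceh and a number, and their occupancy by PHA-4 was read from ChIP-seq of whole L3 larvae. They were chosen as the protein-coding genes of the Ensembl annotation of WBcel235 with such a symbol, leaving out ceh-22 and ceh-34. This gave 61 of 19973 protein-coding genes. The rule uses symbols and no measured value, but earlier results of these data were known when it was set. The study holds 1 group of 2 biological replicates and no second condition. Both came from strain OP37, whose genotype per the labels is unc-119(ed3) III with the insertion wgIs37, which targets pha-4. Larvae were of mixed sex and of unstated age, and the whole organism was used, so the cells in which a region is occupied cannot be told apart. The description names eGFP-pha-4 as the ChIP target while the antibody entry names pha-4. Because there is no second condition, every value below is a description, set beside the same value over all protein-coding genes, with no test.

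Homeobox genes encode transcription factors that bind DNA through a homeodomain, and in the worm many of them fix the identity of particular neurons, muscles or epidermal cells. They fall into classes named for their founding members, among them ANTP (Hox and NK-like genes), PRD, CUT, TALE, POU, sine oculis and LIM. PHA-4 is the worm's FoxA factor, a forkhead protein that specifies the foregut, and several homeobox genes act in single cell types of the pharynx. The deposited optimal list held 7847 peaks that passed the authors' reproducibility step, and each peak has a summit and a height whose scale is not stated. A gene is called bound below where an optimal summit fell in its promoter window, which spans the 1000 bp before and the 200 bp after each annotated 5′ end.

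The sequences at 5 of the bound ceh promoters are given here from the RefSeq genome of WBcel235, plus strand, 5′ to 3′. They were chosen to show the highest peak, that of ceh-38 (chrII:6951399-6951525), the most GC-rich summit, that of ceh-39 (chrX:1856298-1856398), both summits with GA repeats, those of ceh-74 (chrV:14177833-14177933) and ceh-100 (chrII:12603835-12603935), and the lowest peak, that of ceh-60 (chrX:6530723-6530823). Each is the window of 101 bases centred on the summit, except at ceh-38. There only the part of the peak before the gene's first annotated base is printed, which stops short of the summit. Capitals mark the GA repeat word GAGAGA, written TCTCTC where it lies on the other strand.
ceh-38: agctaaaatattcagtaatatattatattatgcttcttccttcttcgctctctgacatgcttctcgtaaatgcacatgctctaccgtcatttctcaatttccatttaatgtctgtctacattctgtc
ceh-39: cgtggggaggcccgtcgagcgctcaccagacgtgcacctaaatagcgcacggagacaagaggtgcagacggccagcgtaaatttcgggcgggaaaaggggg
ceh-74: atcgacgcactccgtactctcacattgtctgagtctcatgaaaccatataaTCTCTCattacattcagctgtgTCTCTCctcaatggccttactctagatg
ceh-100: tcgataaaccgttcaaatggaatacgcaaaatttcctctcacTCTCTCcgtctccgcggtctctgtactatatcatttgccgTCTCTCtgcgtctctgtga
ceh-60: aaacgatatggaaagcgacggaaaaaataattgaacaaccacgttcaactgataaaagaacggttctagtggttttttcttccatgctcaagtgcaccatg

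Of the 61 ceh genes, 8 (13.1%) were bound at a promoter, against 24.0% of all protein-coding genes. The bound members were ceh-18, ceh-38, ceh-39, ceh-60, ceh-74, ceh-88, ceh-92 and ceh-100. An optimal summit lay within the annotated gene of 5 members (8.20%), against 8.76% of all genes. A summit lay within the gene or up to 5 kb from either end of it at 28 members (45.9%), against 53.7% of all genes. The share of ceh genes was thus below that of all genes at promoters and in the 5 kb surroundings, and near it within genes.

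The highest of these peaks was at ceh-38, which encodes a ONECUT homeodomain protein of the CUT class. Its summit lay 14 bp downstream of a 5′ end, in an untranslated exon on chromosome II, and its height of 342.0 ranked 122 among the 7847 optimal peaks. Only 117 of the 4796 bound genes (2.44%) had a higher promoter peak. The gene has 11 annotated 5′ ends, and the same summit lies 240 bp upstream of malt-1, the worm paracaspase gene, so the peak cannot be given to either gene alone.

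The next highest was at ceh-39, another ONECUT gene, known as an X-chromosome signal element of sex determination. Its height was 106.0 (rank 2818), with the summit 176 bp upstream of its sole 5′ end in sequence of 63.4% GC, against a median of 40.6% over all optimal windows. Of the bound genes, 48.5% had a higher promoter peak. The peak of ceh-92 reached 89.6 (rank 3622), 877 bp upstream of its 5′ end in an untranslated exon of Y66D12A.6 and 245 bp upstream of Y66D12A.7, and 59.0% of bound genes had a higher one. Its summit lies nearer to Y66D12A.7, so it cannot be given to ceh-92 alone.

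The other 5 peaks were among the lower ones of the optimal list. They were those of ceh-74 (58.8, in an intron of cest-2.3), ceh-100 (56.6, 501 bp upstream of the lipase-related gene lips-15), ceh-88 (52.1), ceh-18 (44.6) and ceh-60 (43.7). Their summits lay 196, 205, 171, 770 and 627 bp upstream of the 5′ ends of these genes, in that order. ceh-18 encodes a POU factor of the gonadal sheath that takes part in oocyte maturation, and ceh-60 encodes a PBX-type TALE protein of the intestine with a part in yolk protein expression. All 5 heights lay under the optimal median of 84.7, which held for 5 of 8 bound members and for 37.3% of all bound genes. The lowest peak of the list had a height of 41.4, so ceh-60 and ceh-18 lay just inside the threshold. The median over the 8 members was 57.7, against 103.85 over all bound genes.

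**Figure D1:**
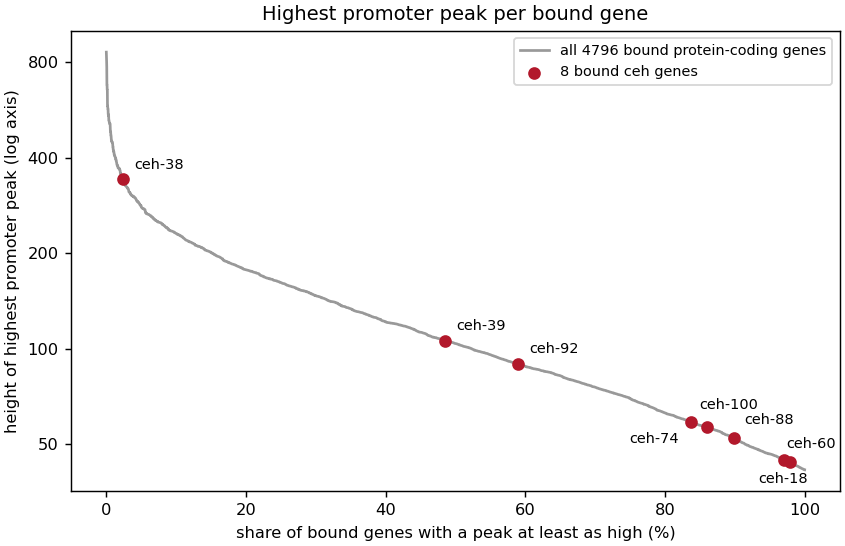
Height of the highest promoter peak of each bound gene (log axis) against the share of the 4796 bound protein-coding genes with a peak at least as high (%), with the 8 bound ceh genes as red points on the grey curve of all bound genes. ceh-38 lies near the top at 342.0, ceh-39 and ceh-92 near the middle, and the other 5 in the lower part of the curve.

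Heights in the replicates' own lists are on different scales, with medians over the optimal peaks of 28.4 in replicate 1 and 57.6 in replicate 2. Each height was therefore divided by its replicate's median, which gives a relative signal of 1 at the median optimal peak. At ceh-38 the height was 120.6 in replicate 1 and 214.6 in replicate 2, a relative signal of 4.25 and 3.73, with a mean of 3.99 ± 0.366 (SD, n = 2). At ceh-39 it was 31.5 and 74.3, or 1.11 and 1.29 relative, a mean of 1.20 ± 0.129 (SD, n = 2). At ceh-92 it was 26.6 and 63.9, or 0.937 and 1.11 relative, a mean of 1.02 ± 0.122 (SD, n = 2). The values of ceh-38 lay above those of both other genes in each replicate. The ranges of ceh-39 and ceh-92 touched, though ceh-39 was the higher within each replicate.

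The remaining 5 bound members had a relative signal under 1 in both replicates. ceh-74 had 0.681 in replicate 1 and 0.599 in replicate 2, and ceh-100 had 0.507 and 0.744. ceh-88 had 0.500 and 0.621, and ceh-18 had 0.501 and 0.489. In order of their means each of these genes overlapped the next in its range, so the ranges do not resolve neighbours in the order. Compared within each replicate, ceh-100 lay above ceh-88 in both, though only just in replicate 1. Likewise ceh-74 and ceh-100 lay above ceh-18 in both replicates. ceh-60 had the widest spread of the 8 relative to its mean, with a height of 6.54 (relative 0.230, rank 14782) in replicate 1 and 36.1 (relative 0.627, rank 6633) in replicate 2. Over the 8 members the median relative signal was 0.633, and the median coefficient of variation between replicates was 11.4%, against 19.4% over all optimal peaks.

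**Figure D2:**
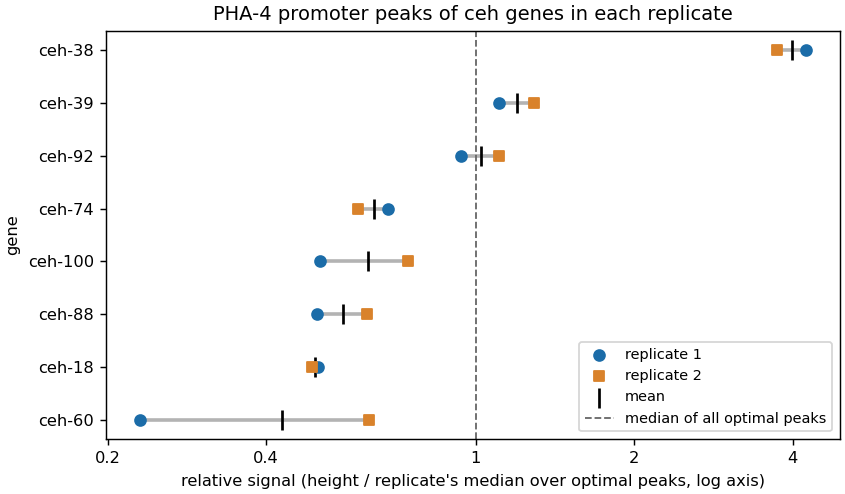
Relative signal (height over the replicate's own median, log axis) at the promoter peaks of the 8 bound ceh genes, with replicate 1 as circles, replicate 2 as squares and their mean as a black bar. ceh-38 stands near 4 in both replicates, ceh-39 and ceh-92 lie around the dashed line at 1, and the other 5 lie below it, with the widest ratio between replicates at ceh-60.

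Binding was also counted in each replicate alone, using as many of its highest regions as there are optimal peaks. In replicate 1 this gave 6 bound members (9.84%), against 24.6% of all genes. In replicate 2 it gave 8 (13.1%), against 24.0% of all genes. The genes were not the same throughout. Replicate 2 held 7 of the 8 bound members, without ceh-18 and with ceh-19 added. Replicate 1 held 4 of them, ceh-38, ceh-39, ceh-74 and ceh-92, with ceh-20 and ceh-93 added.

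Of the members without a promoter summit, 2 carried a summit within the gene. At ceh-8, a RAX-type gene on chromosome I, a peak of 75.8 lay in an untranslated exon 1339 bp downstream of the nearest of its 5′ ends, and also 665 bp upstream of the collagen gene col-63. Its relative signal was 0.917 in replicate 1 and 0.899 in replicate 2. At ceh-37, an OTX-type gene on chromosome X, a peak of 60.8 lay in an intron 1500 bp downstream of a 5′ end, with relative signals of 1.03 and 0.599. A further peak of 57.6 lay just beyond the 3′ end of ceh-37. Of the promoter-bound members, ceh-60 also had a peak of 67.3 in a coding exon, 7171 bp into the gene and higher than its promoter peak. In ceh-88 a peak of 65.1 lay 2118 bp into the gene and 221 bp upstream of C49C3.6.

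Within 5 kb of the ceh genes there were 45 distinct optimal summits. Of these, 8 lay in a member's own promoter window, and 3 of those 8 were shared with another gene, namely malt-1, lips-15 and Y66D12A.7. Of the rest, 24 lay in the promoter window of a gene outside the family, and each of the 24 was nearer to that gene's 5′ end than to the member's. The last 13 lay in no promoter window. By annotation 32 were intergenic, 6 lay in introns, 6 in untranslated exons and 1 in a coding exon.

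**Figure D3:**
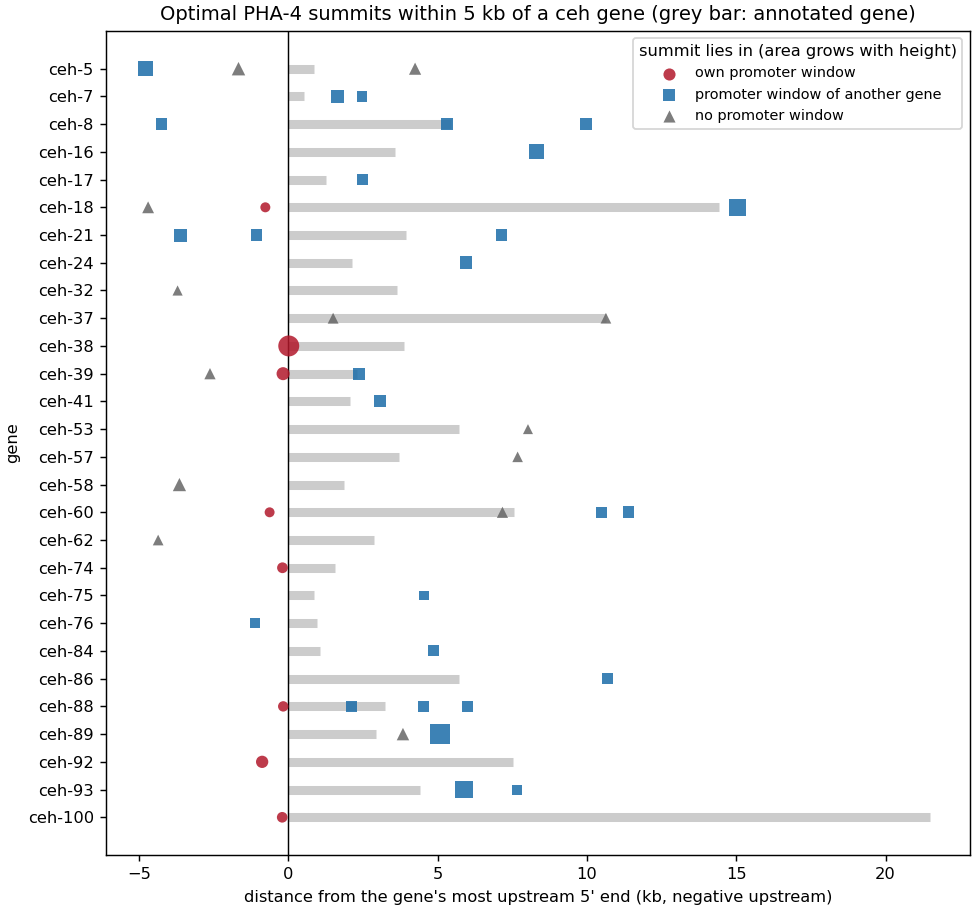
Distance (kb) of each optimal summit within 5 kb of a ceh gene from that gene's most upstream 5′ end, for the 28 members with such a summit, with negative values upstream, grey bars for the annotated genes and symbol area growing with height. Red circles mark the 8 summits in the member's own promoter window, blue squares those in another gene's window and grey triangles those in none; the large blue squares at ceh-89, ceh-93 and ceh-18 lie beyond the genes' 3′ ends.

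The highest peaks near members without a bound promoter stood at the promoters of their neighbours. The peak of 292.4 (rank 226) near ceh-89 lay 677 bp upstream of akt-2, which encodes an Akt kinase. The peak of 231.9 near ceh-93 lay 215 bp upstream of ife-2, an eIF4E gene. Near ceh-5, a VAX-type gene, a peak of 169.3 lay 326 bp upstream of eat-16, which encodes a regulator of G protein signalling. Near ceh-16, the worm engrailed gene, a peak of 161.3 lay 125 bp upstream of the DnaJ-domain gene dnj-10. Near ceh-24, an NK2-type gene of pharyngeal and vulval muscle, a peak of 101.3 lay 182 bp upstream of the F-box gene sel-10. The peak of 88.5 near ceh-7 lay 514 bp upstream of the sphingosine kinase gene sphk-1, and that of 67.1 near ceh-86 lay 812 bp upstream of F42G2.2. An exception was ceh-58, whose peak of 110.6 lay 3647 bp upstream of its 5′ end and in no promoter window, with relative signals of 1.53 in replicate 1 and 1.17 in replicate 2. At ceh-5, peaks of 115.9 (1669 bp upstream) and 87.2 (4245 bp downstream of the 5′ end) likewise lay in no promoter window. The peak of 115.9 lay in an untranslated exon within the annotated spans of ocrl-1 and eat-16. Its relative signals were 0.826 in replicate 1 and 1.56 in replicate 2. Around the bound gene ceh-18, the highest peak was not its own but one of 229.2 beyond its 3′ end, 310 bp upstream of the transthyretin-related gene ttr-48.

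Of the 6 CUT-class members, 3 lie close together on chromosome X, namely ceh-39, ceh-21 and ceh-41. The ceh-39 promoter peak (106.0) lies 3612 bp upstream of ceh-21, which had no summit in its own window. A peak of 77.8, with its summit 47 bp downstream of the 5′ end of T26C11.9, lies 1066 bp upstream of ceh-21, just outside the 1000 bp window. A peak of 82.3 lies 3079 bp downstream of the 5′ end of ceh-41 and 50 bp upstream of T26C11.4. The relative signals of the last peak were 0.732 in replicate 1 and 1.05 in replicate 2, while those of the T26C11.9 peak were 0.959 and 0.876. Of the 3 genes, only ceh-39 had a summit in its own promoter window.

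By class, the bound members were 2 of 6 CUT genes (ceh-38 and ceh-39), 1 of 3 TALE genes (ceh-60), 1 of 2 POU genes (ceh-18) and 4 of 23 members given no class here. None of the 16 ANTP-class, 8 PRD-class and 2 sine oculis-class members was bound, nor was ceh-14, the sole LIM-class member. The share over all genes was 24.0%. Most classes hold few genes, and no class count was tested. A summit lay within 5 kb of 3 of the 16 ANTP genes (18.8%), against 53.7% of all genes. Of 5 members known to act in cells of the pharynx, ceh-2 (EMX-type), ceh-19 (BarH-type), ceh-24 and ceh-28 (both NK2-type) and ceh-45 (goosecoid-type), none had an optimal promoter summit, against 24.0% of all genes, and 1, ceh-24, had a summit within 5 kb, against 53.7%. With 5 genes, these counts are too small to set apart from those shares. The genes ceh-22 and ceh-34 were left out of the members and are in none of these class or pharynx counts. By the same rule ceh-22 had a promoter peak of 133.5, while the outcome at ceh-34 is not given here. By chromosome, 3 of 18 members on X were bound (16.7%), against 25.0% of all X-linked genes, and 5 of 43 on the autosomes (11.6%), against 23.9% of all autosomal genes.

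Other families of transcription factors were counted by the same rule. Of 37 other homeobox genes, with names such as unc-86 or lin-39, 4 were bound (10.8%), with promoter peaks of 78.7 at psa-3, 74.3 at zfh-2, 73.5 at dve-1 and 72.8 at hmbx-1. Their relative signals averaged 0.959 ± 0.0156 at psa-3, 0.791 ± 0.243 at zfh-2, 0.933 ± 0.341 at dve-1 and 0.875 ± 0.0348 at hmbx-1 (SD, n = 2 each). Of the 8 bound ceh genes, ceh-38, ceh-39 and ceh-92 had higher peaks than these 4, and the other 5 had lower ones. Of the helix-loop-helix genes named hlh, 3 of 25 were bound (12.0%), with a median height of 198.9. Of the nuclear hormone receptor genes named nhr, 86 of 269 were bound (32.0%), with a median height of 88.6, and of the forkhead genes named fkh, 2 of 9 (22.2%). The ceh share of 13.1% thus lay close to those of the other homeobox and hlh genes and below those of the nhr and fkh genes. The order was not tested, and with 9 fkh genes their count is too small to set apart from the ceh share.

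**Figure D4:**
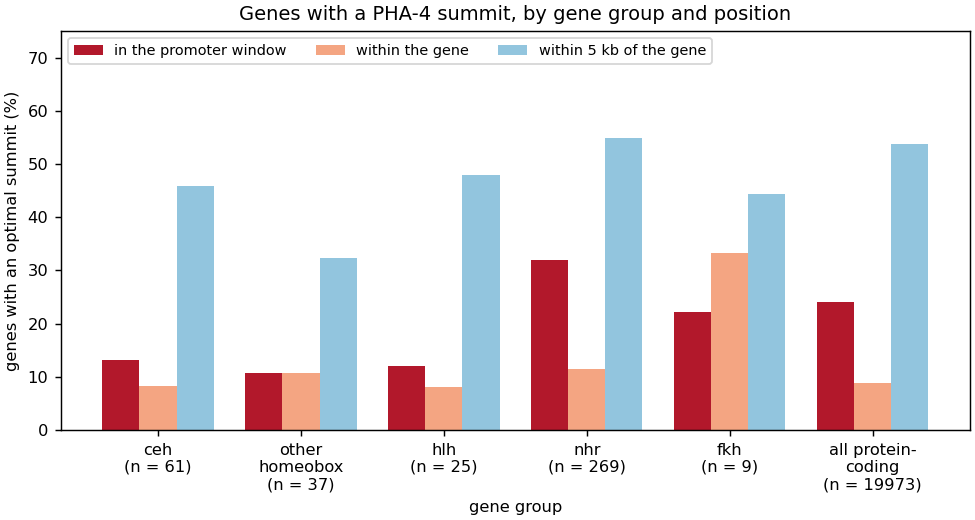
Share of genes (%) with an optimal PHA-4 summit in the promoter window, within the gene and within 5 kb of the gene, for the ceh genes, 4 other gene groups and all protein-coding genes, with the number of genes under each group. The ceh genes stand at 13.1%, 8.20% and 45.9%, against 24.0%, 8.76% and 53.7% of all protein-coding genes.

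The ceh genes had a longer median span than all protein-coding genes and a wider median gap to their upstream neighbours. The median span was 2637 bp, against 2027 bp over all protein-coding genes. The median gap to the next protein-coding gene upstream was 1805 bp, against 936 bp. Within the family, the bound members had a median gap of 609.5 bp and the others one of 1858 bp. All bound protein-coding genes had a median gap of 747 bp. The part of these gaps in the counts was not tested.

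Each replicate's relaxed list of 30000 regions includes many weaker regions below the optimal threshold, and in these lists the ceh genes were reached about as often as other genes. A region summit of replicate 1 lay in the promoter window of 27 members (44.3%), against 43.1% of all genes. For replicate 2 it was 23 members (37.7%), against 40.0%. Both lists had a region at 20 members (32.8%), against 34.7%. Of the 53 members that were not bound, 12 (22.6%) had a region in both lists, against 14.5% of the 15177 unbound protein-coding genes. A further 10 had one in 1 list, and 31 (58.5%) had one in neither, against 68.0%. At 5 of the 12 genes the highest region of each list had its summit within 200 bp of the other's. Counting every region in the window, the closest pair of summits lay within 200 bp at 10 of the 12, all but ceh-58 and ceh-6.

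**Figure D5:**
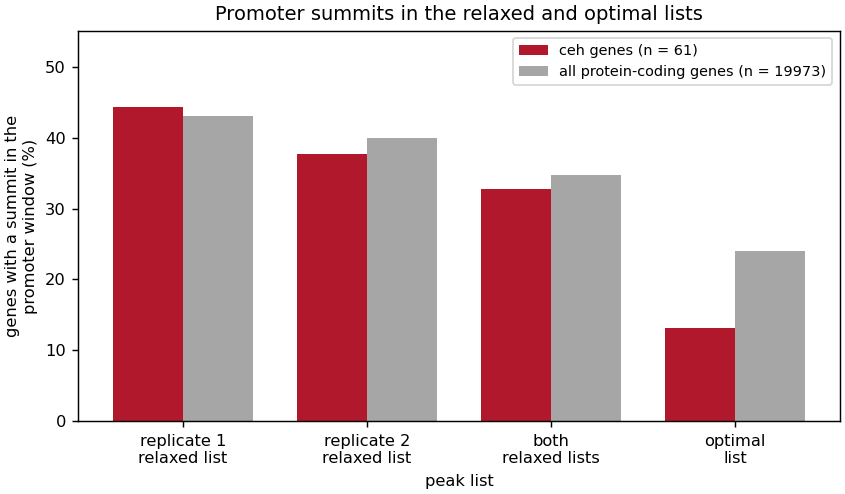
Share of the 61 ceh genes (red) and of all 19973 protein-coding genes (grey) with a region summit in the promoter window (%), in each replicate's relaxed list, in both relaxed lists and in the optimal list. The bars are close in the relaxed lists, at 32.8% and 34.7% for both lists together, and apart in the optimal list, at 13.1% and 24.0%.

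Among the 12 members with a region in both lists, the highest mean relative signals were at ceh-19, ceh-37, ceh-2, ceh-5 and ceh-27. ceh-19, which acts in the MC motor neurons of the pharynx, had a mean relative signal of 0.431 ± 0.179 (SD, n = 2), from heights of 8.64 in replicate 1 and 32.1 in replicate 2, at summits 1993 bp apart, with the closest pair of regions 42 bp apart. Its region in the pooled list had a height of 37.6, under the lowest optimal height of 41.4. ceh-2, which acts in pharyngeal neurons, had a mean of 0.396 ± 0.0379 (SD, n = 2), with summits 767 bp upstream in replicate 1 and 834 bp upstream in replicate 2, which are 67 bp apart. Its pooled height was 36.4. The means were 0.404 ± 0.127 at ceh-37, 0.382 ± 0.150 at ceh-5 and 0.365 ± 0.212 at ceh-27 (SD, n = 2 each), with the summits of the highest regions 7639, 298 and 1900 bp apart. Their closest pairs lay 24 bp apart at ceh-37, 46 bp at ceh-5 and 95 bp at ceh-27, so the relative signals of these 3 genes and of ceh-19 join regions at different places. Higher regions of 1 list alone were those of ceh-20 (relative 0.792) and ceh-93 (0.632) in replicate 1.

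At the other end, 14 members (23.0%) had no region within 5 kb in any of the 4 lists, against 22.6% of all protein-coding genes. These were ceh-13, the labial Hox gene, ceh-14, a LIM-class gene, ceh-23, ceh-28, which acts in the pharyngeal M4 neuron, ceh-30, ceh-31, ceh-36, an OTX-type gene, ceh-40, a PBX-type gene, ceh-48, ceh-49, ceh-54, ceh-83, ceh-90 and ceh-99. A list cut at a fixed number of regions does not show that such genes are unoccupied, only that no region there ranked high enough to enter it.

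The sequence at the summits was searched for words of the FoxA motif, TGTTTAC and TGTTTGC with the variants TATTTAC and TATTTGC, and for the GA repeat word GAGAGA, on both strands within 50 bp of the summit. None of the 8 promoter summits of the ceh genes had a FoxA word in this window, against 25.3% of the peaks in any promoter window and 26.0% of all optimal peaks. Within 100 bp 1 of the 8 had one, at ceh-18, where TATTTGC began 94 bp from the summit, against 34.2% of the peaks in any promoter window. The GA word was present at 2 of 8 (25.0%), at ceh-74 and ceh-100 as printed above, against 21.8% of peaks in any promoter window. Of the 45 summits within 5 kb of a member, 6 (13.3%) held a FoxA word within 50 bp, against 26.0% of all optimal peaks, among them the peaks at the neighbours akt-2 and dnj-10. Within 100 bp it was 14 of 45 (31.1%), against 35.6% of all optimal peaks. With the 50 bp setting, the same words occurred around 6.03% (FoxA) and 7.23% (GA) of the 29773 distinct 5′ ends of protein-coding genes. These shares are not to be set beside the 100 bp counts. These matches describe letters in a window and say nothing of whether PHA-4 touched them.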

How the data were processed

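Whole-larva ChIP-seq libraries of 2 biological replicates gave the deposited peak lists on build ce11, the same assembly as WBcel235. Lists on ce10 were not used. Per the manifests deposited with the samples, each replicate's list of 30000 regions rests on its alignment and on a control that the replicates share. A pooled list was built from the alignments together, and an irreproducible discovery rate step on these 3 lists left the optimal list. The sources used here name no aligner, peak caller or read depth, so the depth behind a height is unknown. The labels number the replicates as biological and give each its own biosample. The authors' signal for each peak, called height here, has no stated scale. It was therefore compared inside 1 list, or as a ratio to the median height of that replicate at the optimal peaks. The deposited q-value, given as −log10, was not used for any count. There were 0 columns of unmapped samples.

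Summits were placed on Ensembl release 115 genes with Python 3.11.15, NumPy 2.4.6, pandas 2.3.3, SciPy 1.17.1 and Matplotlib 3.10.9. Names of 17 genes were taken from RefSeq. Replicate heights were those of the nearest summit within 200 bp. The placement of summits was checked on constructed genes whose answers were known. The promoter, gene and 5 kb counts are described without a test of the list. Alternatives changed the window, the assignment, the threshold, the list, the scaling and the motif window.

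The members and lists were chosen with earlier results of these data known. Genes are named by rule: members with a summit in the promoter window or the gene, the 10 others with the highest summits within 5 kb, the 5 highest below the threshold, members with no region at all, other homeobox genes with the highest peaks, and genes that share a summit. Further neighbours, ceh-6 and ceh-20 were named after their values were seen. The gene that RefSeq calls ceh-44 is cone-1 in Ensembl and is not a member.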

Additional observations from a re-analysis of the deposited data

How the results depend on the processing

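No paired analysis was possible because the study holds 1 group and no comparison was tested. The promoter count of 8 fell to 5 with a window of 500 bp upstream and 100 bp downstream, which loses ceh-18, ceh-60 and ceh-92, and to 3 among the 3924 higher optimal peaks, by the construction of that setting. Among these higher peaks, 1 member had a summit within the gene and 12 within 5 kb, again after dropping the lower peaks. Under the alternatives, shares over all genes were taken for the promoter counts only. The gene and 5 kb counts of this paragraph are therefore not compared with other genes. Leaving out a replicate gave 6 to 8 promoter-bound members, 5 to 6 with a summit in the gene and 28 within 5 kb. The median height, put on the optimal list's scale, was 57.9 without replicate 1 and 70.4 without replicate 2. Each median is over the members bound in that setting, so the genes differ. Without replicate 2, the low peaks of ceh-18, ceh-60, ceh-88 and ceh-100 dropped out and ceh-20 and ceh-93 entered. Longer windows (11 members), whole regions (10), the nearest 5′ end (9) and 5000 bp from any 5′ end in place of the gene span (22 within 5 kb) stayed within 1.5 times the count given. The highest regions of the pooled list gave the same 8 members at the same heights, and 4796 bound genes as in the optimal list. That setting is therefore no separate check. With the nearest 5′ end the genes changed: ceh-92 was lost, and ceh-5 and ceh-37 were gained. Division by the median of the whole list moved the median relative signal to 2.60, by construction, since those lists hold many weaker regions. Within 100 bp, 1 of the 8 windows held a FoxA word, against 0 within 50 bp. Leaving out a replicate gave 11 heights of single bound genes. Of these, 8 moved by less than the spread (SD) between replicates and 3 by more. That spread comes from the same replicates, each of which lies within it of their mean by arithmetic. The count therefore does not show that the heights are stable. The other settings reuse the same heights. The share of ceh genes with a bound promoter was below that of all genes under each setting, from 4.92% against 15.1% (higher peaks) to 18.0% against 29.4% (2000 bp upstream). Depth is unknown, so no counting error can be given.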

Other observations

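Some peaks near ceh genes lay beside small RNA genes, which were not counted as promoters here. The peak of 68.9 that lies 2624 bp upstream of ceh-39 had a tRNA gene within 500 bp, and the peak of 42.8 beyond the 3′ end of ceh-93 had cel-mir-800 within 500 bp. Replicates differed at some peaks near the family: the peak near ceh-57, with a height of 55.4 in the optimal list, had a relative signal of 1.22 in replicate 1 and 0.213 in replicate 2, and the peak near ceh-53, with a height of 44.9, had 0.171 and 0.724. These genes were picked after their values were seen.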
